A study of Homo sapiens with 6 samples.

Results

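Messenger RNA of 10 core autophagy genes was compared between SH-SY5Y cells with stable knockdown of TDP-43 by an shRNA (short hairpin RNA) and SH-SY5Y cells with a control shRNA. The genes were taken by symbol: ULK1, ULK2, ATG13, BECN1, ATG14, ATG9A, ATG7, ATG5, MAP1LC3B and GABARAPL1. All 10 were among the 26372 genes of the deposited table, and all 10 had a mean of at least 1 FPKM over the libraries and so stood among the 13434 genes tested. SH-SY5Y is a human neuroblastoma line, and TDP-43, the product of TARDBP, is an RNA-binding protein of the nucleus that is depleted there in most cases of amyotrophic lateral sclerosis. Both arms were infected with lentivirus made from the same vector. Stable TDP-43 knockdown cells were selected and kept in puromycin, which the protocol does not state separately for the control cells. Of the 6 poly(A) libraries, 3 were knockdown and 3 control. The titles give each arm a single hairpin name, so the effect of TDP-43 loss and that of the hairpin or of the selected cell population cannot be told apart. The labels do not state whether the 3 libraries of an arm are separate cultures. The p-values therefore reflect spread between libraries that could be technical.

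Macroautophagy encloses cytoplasm in a double membrane, the autophagosome, and delivers it to the lysosome. The ULK kinase complex starts the process when the nutrient sensor mTORC1 releases it. A lipid kinase complex built on Beclin 1 then marks the membrane, ATG9 vesicles and lipid transfer proteins supply it, and a pair of ubiquitin-like conjugation reactions attaches ATG8 proteins, the LC3 and GABARAP families, to its lipid. In neurons the pathway clears aggregates and damaged organelles, and earlier work in cultured cells has tied TDP-43 to ATG7 mRNA, to RPTOR and to the splicing of ATG4B.

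The values are FPKM, fragment counts corrected for transcript length and for library size, so levels of different genes can be set side by side. Absolute depth cannot be read from FPKM. The steps between low values put the knockdown libraries at 52.6% to 94.7% of the depth of the deepest library, and the control libraries at 84.6% to 100%. Knockdown library 2 was the shallowest, and it held the lowest value of its group in 6 of the 10 core genes and in 47.8% of all tested genes. TARDBP stood at 21.2 ± 0.598 FPKM in knockdown libraries and 49.5 ± 1.49 FPKM in control libraries (SD, n = 3 each). The arms also differed in cell-state markers. The summed FPKM of 10 noradrenergic (neuron-like) markers was 1009 to 1121 in knockdown libraries and 551 to 565 in control libraries, with TH listed at 0 in all 6. That of 11 mesenchymal (substrate-adherent) markers was 654 to 668 in knockdown libraries and 2104 to 2142 in control libraries. Single markers did not all move with their sum. Of the 9 tested noradrenergic markers 8 were higher and DBH was lower (limma adjusted p under 0.05). Of the 11 mesenchymal markers 9 were lower, SNAI2 did not pass and TWIST1 was higher. PRRX1 was nearly absent in knockdown libraries, at 0, 0.0304 and 0.0168 FPKM against 70.0, 68.8 and 66.9 FPKM in control libraries. FN1 stood at 29.4, 28.8 and 28.8 FPKM in knockdown libraries and 622, 619 and 620 FPKM in control libraries. TWIST1 stood at 299, 299 and 285 FPKM in knockdown libraries and 107, 112 and 113 FPKM in control libraries. The sum of 5 Schwann cell markers was 7.49 to 8.98 FPKM in knockdown libraries and 2.53 to 2.75 FPKM in control libraries, with none at 0 throughout a group. The part of these markers in the results below was not tested, and in bulk RNA fewer cells of a type and less RNA per cell cannot be told apart.

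On the deposited scale the kinase genes ULK1 and ULK2 and the Beclin 1 partner gene ATG14 rose, and BECN1, ATG9A, both conjugation genes and both ATG8 genes fell. That is 3 of 10 higher and 6 of 10 lower at an adjusted p under 0.05 (limma, Benjamini-Hochberg over all tested genes), against a background in which 66.3% of tested genes passed, 30.5% higher and 35.9% lower. The 3 rises became negative values when the columns were set to equal sums, a scaling dominated by a few small RNAs that moved the median of all genes to a log2 value of -0.82 from -0.02. That scaling multiplies each column by a constant and shifts nearly all genes alike. The distance of a gene to the median could therefore hardly change, and it gives no separate support for the rises. It was 0.66 for ATG14, 0.38 for ULK1 and 0.29 for ULK2, beside 0.63, 0.39 and 0.30 on the deposited scale. The groups did not overlap for 9 of the 10 genes, 3 higher and 6 lower, where 70.8% of all tested genes had groups apart, 32.5% higher and 38.2% lower. No core gene reached a 2-fold change on the log2(FPKM + 1) scale, while 11.3% of tested genes were called with a change of 2-fold or more. The median log2 fold change of the 10 was -0.23, beside -0.02 over all tested genes.

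**Figure D1:**
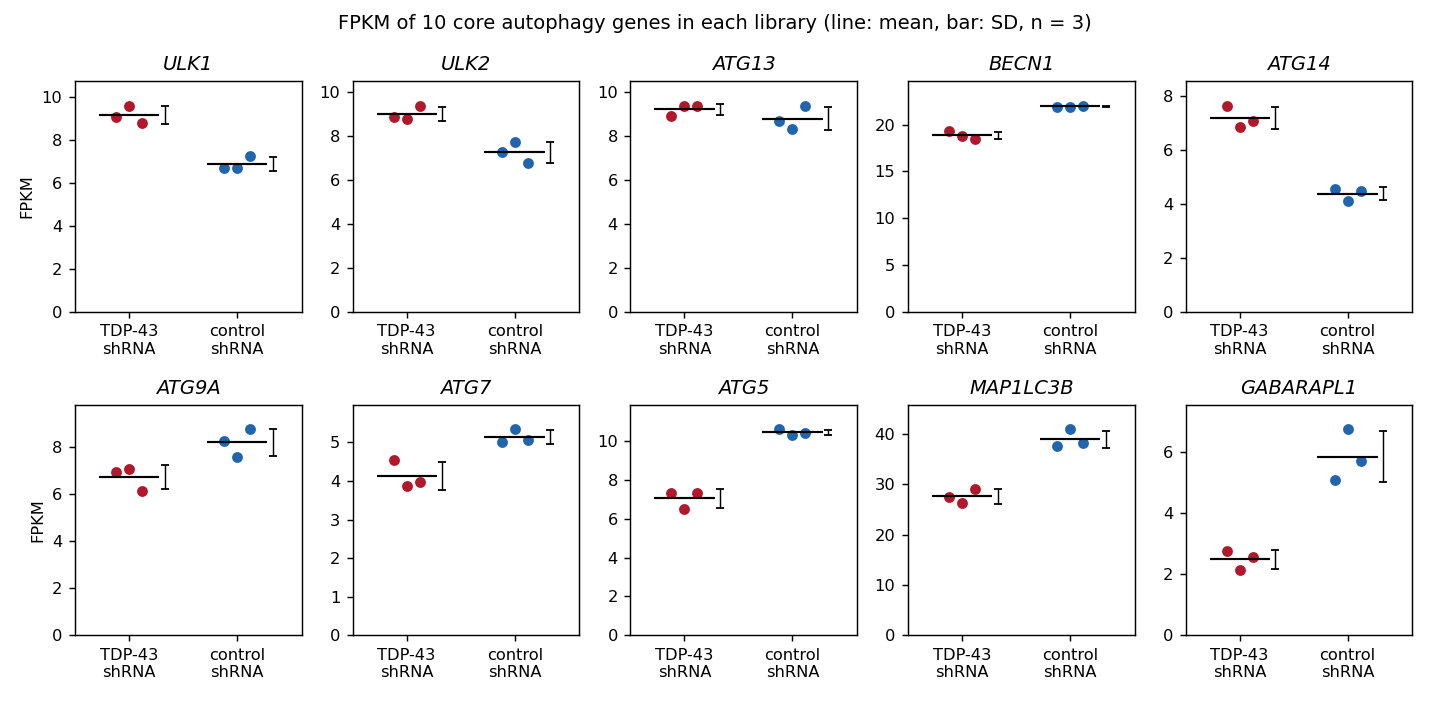
FPKM (vertical axes, from 0) of the 10 core autophagy genes in each of the 3 TDP-43 shRNA libraries (left, red) and 3 control shRNA libraries (right, blue), with group means as lines and SD as bars. ULK1, ULK2 and ATG14 lie higher in the knockdown, which turns negative under equal column sums, ATG13 overlaps, and the other 6 lie lower.

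ULK1 and ULK2 encode the paired serine/threonine kinases that start autophagosome formation. ULK1 lies on the plus strand of chromosome 12 (131894651 to 131923167, GRCh38) and measured 9.06, 9.58 and 8.79 FPKM in knockdown libraries, against 6.68, 6.71 and 7.24 FPKM in control libraries. Every knockdown value was above every control value. Its log2 fold change was 0.37 (standard error 0.062, limma adjusted p = 0.000814), and -0.44 under equal column sums. ULK2 lies on the minus strand of chromosome 17 (19770829 to 19867936) and measured 8.90, 8.78 and 9.40 FPKM in knockdown libraries, against 7.29, 7.75 and 6.76 FPKM in control libraries. Again the groups were apart, with a log2 fold change of 0.28 (standard error 0.066, limma adjusted p = 0.00507) that turned to -0.53 under equal column sums. The levels of both kinases were close in either arm. Their FPKM ratio ULK1:ULK2 within a library was 1.02, 1.09 and 0.935 in the knockdown and 0.916, 0.865 and 1.07 in the control. Multiplying a library by a constant does not move this ratio, though quantile normalization can. These ratios overlapped (exact two-sided permutation p = 0.4), with means of 1.01 ± 0.0778 and 0.95 ± 0.107 (SD, n = 3 each).

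ATG13, the adaptor that holds the kinases in their complex (chromosome 11, 46617527 to 46674818, plus strand), was the core gene that did not pass. It stood at 8.91, 9.37 and 9.35 FPKM in knockdown libraries and 8.66, 8.32 and 9.35 FPKM in control libraries, and the groups overlapped. The log2 difference was 0.06 with a 95% interval of -0.08 to 0.20 (limma adjusted p = 0.381). The complex has further subunits in RB1CC1, which encodes the scaffold FIP200, and ATG101, which binds ATG13. RB1CC1 did not pass, but was called higher without knockdown library 2 (adjusted p = 0.0285) and with quantile normalization (adjusted p = 0.0328). ATG101 fell, with 15.1, 14.6 and 15.7 FPKM in knockdown libraries and 20.4, 18.7 and 17.9 FPKM in control libraries. Its log2 fold change was -0.31 (limma adjusted p = 0.00180), and -0.18 with quantile normalization. The 5 genes of the complex gave 2 rises (40%), 1 fall (20%) and 2 that did not pass, with a median log2 fold change of 0.07. Among all tested genes 30.5% were higher and 35.9% lower.

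BECN1 encodes Beclin 1, the scaffold of the autophagic PI3-kinase complexes, and ATG14 encodes the subunit that directs one of them to the forming autophagosome. BECN1 lies on the minus strand of chromosome 17 (42810134 to 42833350) and measured 19.3, 18.8 and 18.5 FPKM in knockdown libraries, against 21.9, 21.9 and 22.0 FPKM in control libraries. The control libraries hardly varied, and all knockdown values lay below them. This corresponded to a log2 fold change of -0.21 (standard error 0.044, limma adjusted p = 0.00280). With quantile normalization it was -0.07 and no longer passed (adjusted p = 0.205).

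ATG14 (chromosome 14, 55366392 to 55411858, minus strand) had the largest rise of the core genes. It stood at 7.66, 6.86 and 7.08 FPKM in knockdown libraries and 4.56, 4.11 and 4.48 FPKM in control libraries. The lowest knockdown library, at 6.86 FPKM, stood well above the highest control library, at 4.56 FPKM. Mean levels were 7.20 ± 0.411 FPKM in the knockdown and 4.38 ± 0.237 FPKM in control libraries (SD, n = 3 each), a ratio of 1.64. On the log2 scale the change was 0.61 (standard error 0.069, limma adjusted p = 7.24e-05), and under equal column sums it was -0.16 and did not pass (adjusted p = 0.106).

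Beclin 1 pairs with either ATG14 or UVRAG, the partner found in endosomal complexes. UVRAG stood at 6.01, 4.62 and 5.74 FPKM in knockdown libraries and 5.33, 5.25 and 5.18 FPKM in control libraries, with overlapping groups (log2 difference 0.04, 95% interval -0.17 to 0.24, limma adjusted p = 0.712). The FPKM ratio ATG14:UVRAG was 1.27, 1.48 and 1.23 in the knockdown libraries and 0.854, 0.783 and 0.864 in the control libraries. ATG14 thus stood above UVRAG in each knockdown library and below it in each control library. The two-sided exact permutation p was 0.1, which is the floor for 3 libraries a side, and 0.167 after Benjamini-Hochberg adjustment over 10 such ratios and shares. Among the 6 other genes of these complexes 0 rose and 1 fell by limma, with a median log2 fold change of -0.04. That fall is 16.7%, beside 35.9% lower and 30.5% higher among all tested genes. The one that fell was NRBF2, an ATG14 complex subunit gene, at 7.99, 7.77 and 8.02 FPKM in knockdown libraries and 9.86, 9.97 and 10.1 FPKM in control libraries (log2 fold change -0.30, limma adjusted p = 0.00103).

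ATG9A encodes the lipid scramblase that travels in vesicles to the growing membrane. ATG9A lies on the minus strand of chromosome 2 (219219380 to 219229717) and measured 6.91, 7.07 and 6.13 FPKM in knockdown libraries, against 8.25, 7.57 and 8.73 FPKM in control libraries. The groups were apart but close, with 7.07 the highest knockdown value and 7.57 the lowest control value. The fitted log2 change was -0.25 (standard error 0.076, limma adjusted p = 0.0161). The call was lost without knockdown library 3 (adjusted p = 0.0523), without control library 1 (adjusted p = 0.0532), without control library 3 (adjusted p = 0.0662), with quantile normalization (adjusted p = 0.0763) and with no filter on low values (adjusted p = 0.0575). A further limit is the annotation, in which the protein-coding gene AC068946.2 on the same strand covers 38.8% of the exon bases of ATG9A.

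Of the 8 other tested genes for membrane supply 0 rose and 3 fell on the deposited scale. The 3 falls are 37.5%, near the 35.9% of all tested genes that were lower, with 30.5% higher. In the 18 alternatives WIPI2 was called higher in 4, ATG2A in 3, and WDR45 and WDR45B in 1 each. ATG9B, too low to be tested, had 0.933, 1.30 and 1.02 FPKM in knockdown libraries and 0.684, 0.711 and 0.736 FPKM in control libraries. With lower filters it was called higher, in 2 alternatives. VMP1, an endoplasmic reticulum scramblase gene needed for autophagosome formation, had the largest log2 change of all tested genes on the autophagy lists. It stood at 35.0, 29.7 and 38.7 FPKM in knockdown libraries and 104.1, 105.2 and 100.8 FPKM in control libraries. The ratio of means was 0.334 and the log2 fold change -1.56 (limma adjusted p = 5.45e-07). TMEM41B, a scramblase gene of the same compartment, had 16.2, 12.8 and 13.6 FPKM in knockdown libraries and 17.8, 19.8 and 17.4 FPKM in control libraries (log2 fold change -0.35, limma adjusted p = 0.00672, and 0.0588 with no filter on low values). WIPI1, which encodes a reader of the Beclin 1 complex's lipid product, passed narrowly (log2 fold change -0.23, limma adjusted p = 0.0410) although its groups overlapped. Its adjusted p was 0.0737, 0.126, 0.109 and 0.138 without knockdown library 1, knockdown library 3, control library 1 and control library 2 in turn, and 0.223 with quantile normalization.

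ATG7 is the E1-like enzyme that activates both ubiquitin-like proteins of the pathway, and ATG5 is part of the conjugate that places ATG8 on lipid. ATG7 lies on the plus strand of chromosome 3 (11272309 to 11557665) and measured 4.55, 3.88 and 3.97 FPKM in knockdown libraries, against 5.01, 5.33 and 5.06 FPKM in control libraries. The groups were apart, with knockdown library 1 nearest to the control. Its log2 fold change was -0.26 (standard error 0.075, limma adjusted p = 0.0140), and the call was lost without control library 2 (adjusted p = 0.0557). ATG5 lies on the minus strand of chromosome 6 (106045423 to 106325791) and measured 7.32, 6.49 and 7.33 FPKM in knockdown libraries, against 10.6, 10.3 and 10.4 FPKM in control libraries. Its groups were wide apart relative to their spread. This corresponded to a log2 fold change of -0.51 (standard error 0.063, limma adjusted p = 0.000121), the ratio of means 0.675.

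Of 9 other genes of conjugation and ATG8 processing 0 rose and 5 fell (55.6%), beside 30.5% higher and 35.9% lower among all tested genes. The falls were ATG3, ATG4A, ATG16L1, ATG4C and ATG10, while ATG12, ATG16L2, ATG4B and ATG4D did not pass. ATG12 was called higher without knockdown library 2 (adjusted p = 0.0160) and with quantile normalization (adjusted p = 0.00711). ATG3, the E2-like enzyme gene of ATG8 lipidation, stood at 17.5, 14.9 and 17.1 FPKM in knockdown libraries and 25.8, 24.5 and 25.5 FPKM in control libraries (log2 fold change -0.59, limma adjusted p = 5.83e-05). ATG16L1, whose product binds the ATG5 conjugate, stood at 9.88, 8.79 and 8.99 FPKM in knockdown libraries and 12.2, 11.8 and 11.9 FPKM in control libraries (log2 fold change -0.35, limma adjusted p = 0.000918). The protease gene ATG4A, whose product trims ATG8 proteins, had a log2 fold change of -0.51 (limma adjusted p = 0.00287). ATG4B, the broader protease of that family, stood at 9.40 ± 1.14 FPKM in knockdown libraries and 9.32 ± 0.325 FPKM in control libraries (SD, n = 3 each). Its log2 difference was 0.01 with a 95% interval of -0.19 to 0.20 (limma adjusted p = 0.954), and gene-level FPKM does not show splicing. The FPKM ratio ATG7:ATG3 within a library was 0.26, 0.26 and 0.233 in the knockdown and 0.194, 0.217 and 0.198 in the control, so the E1 gene stood higher relative to the E2 gene in every knockdown library (exact two-sided permutation p = 0.1).

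MAP1LC3B encodes LC3B, the usual marker of autophagosomes, and GABARAPL1 a neuronally abundant relative of the GABARAP branch. MAP1LC3B lies on the plus strand of chromosome 16 (87383995 to 87404779) and measured 27.5, 26.2 and 29.02 FPKM in knockdown libraries, against 37.6, 40.8 and 38.2 FPKM in control libraries. No library of either group came near the other group. On the log2 scale the change was -0.48 (standard error 0.054, limma adjusted p = 6.25e-05), and -0.26 with quantile normalization, where it still passed (adjusted p = 0.00149). Of the windows of 75 bases in its longest coding transcript 8.91% were also found in MAP1LC3B2, which was listed at 0 in all libraries but control library 2 (0.22 FPKM).

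GABARAPL1 (chromosome 12, 10212458 to 10223130, plus strand) had the largest fall of the core genes. It stood at 2.76, 2.16 and 2.59 FPKM in knockdown libraries and 5.11, 6.75 and 5.71 FPKM in control libraries. Every knockdown value lay under every control value. It averaged 2.50 ± 0.308 FPKM in the knockdown and 5.86 ± 0.831 FPKM in control libraries (SD, n = 3 each), a ratio of 0.427. The fitted log2 change was -0.97 (standard error 0.107, limma adjusted p = 5.92e-05). The scale of log2(FPKM + 1) understates such low genes, and with a pseudocount of 0.1 the log2 fold change was -1.19.

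The ATG8 family as a whole moved unevenly. The summed FPKM of its 7 genes was 305, 292 and 310 in the knockdown libraries and 337, 339 and 334 in the control libraries. Most of it came from GABARAP, which had 196, 178 and 190.2 FPKM in knockdown libraries and 201, 192 and 199 FPKM in control libraries. It did not pass (log2 difference -0.07, limma adjusted p = 0.199), and its direction depended on the scaling. GABARAP was called higher in the knockdown with quantile normalization (0.17, adjusted p = 0.00317), and lower with equal column sums (-0.97, adjusted p = 4.83e-08) and with equal sums without 6 small RNAs (-0.10, adjusted p = 0.0486). The annotated gene AC120057.2 holds 39.6% of the windows of 75 bases of GABARAP. GABARAPL1 made up 0.902%, 0.74% and 0.834% of the ATG8 sum in the knockdown and 1.52%, 1.99% and 1.71% in the control. MAP1LC3B made up 8.99%, 8.98% and 9.36% in the knockdown and 11.2%, 12.1% and 11.4% in the control. Either share was lower in every knockdown library than in any control library, and the share of GABARAP was higher, at 62.3 ± 1.72% against 58.6 ± 1.63% (SD, n = 3 each). Each of these 3 shares had an exact two-sided permutation p of 0.1 (0.167 after adjustment over the 10 ratios and shares). The shares are parts of the same sum, so a fall of some raises others, and they are not 3 separate results. GABARAPL2 took 25.2 ± 1.51% in the knockdown and 25 ± 0.972% in the control, with overlapping libraries (exact permutation p = 0.9). On its own level GABARAPL2 passed narrowly (log2 fold change -0.15, limma adjusted p = 0.0388) and turned to 0.12 with quantile normalization. Without knockdown library 1, control library 1 and control library 2 in turn its adjusted p was 0.133, 0.0816 and 0.144, and with the replicate block it was 0.0609. MAP1LC3A, a neuronally enriched LC3 gene, fell to 7.28, 8.35 and 7.85 FPKM in knockdown libraries, against 9.86, 10.3 and 10.6 FPKM in control libraries (log2 fold change -0.35, limma adjusted p = 0.00138). MAP1LC3C stood at or under 0.118 FPKM in every library and was not tested.

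**Figure D2:**
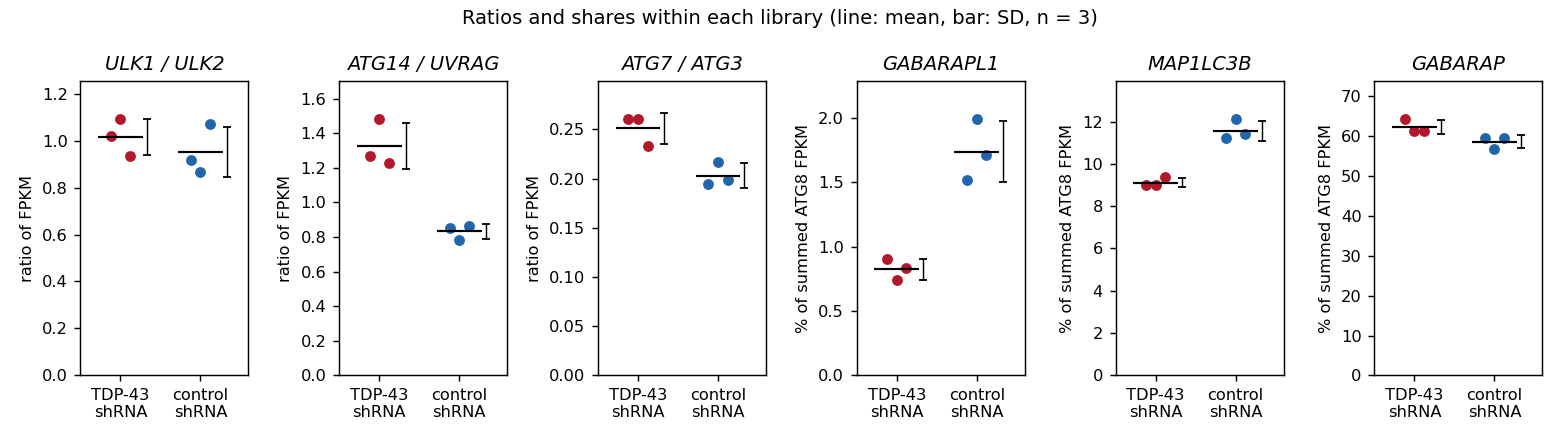
Ratios of FPKM between gene pairs and shares of the summed ATG8 FPKM in percent (vertical axes, from 0) within each of the 3 TDP-43 shRNA libraries (left, red) and 3 control shRNA libraries (right, blue), with group means as lines and SD as bars. ATG14 over UVRAG is 1.23 to 1.48 in the knockdown and 0.783 to 0.864 in the control, and the shares of GABARAPL1 and MAP1LC3B are lower in the knockdown, while ULK1 over ULK2 overlaps.

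The promoters of the core genes with the largest rise and the largest fall are shown because these genes moved apart from each other most. The windows run from 250 bases before to 50 bases after the start that RefSeq gives (GRCh38.p14), and capitals mark the motif found in each. Motifs were searched on both strands: CACGTG, the E-box core, TCACGTGA, a longer form bound by TFEB and its relatives that contains the E-box core, GTAAACA, a FOXO site, and TGACGTCA, a cyclic AMP response element. The ATG14 window (chr14:55411781-55412080, minus strand) holds CACGTG 21 bases upstream of the start. The GABARAPL1 window (chr12:10212627-10212926, plus strand) holds TGACGTCA 30 bases upstream.
ATG14: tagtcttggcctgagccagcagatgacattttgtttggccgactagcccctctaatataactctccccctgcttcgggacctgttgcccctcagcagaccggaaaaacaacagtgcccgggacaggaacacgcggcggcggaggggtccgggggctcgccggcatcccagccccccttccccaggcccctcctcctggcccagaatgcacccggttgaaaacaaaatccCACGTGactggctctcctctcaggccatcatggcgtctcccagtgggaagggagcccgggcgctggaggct
GABARAPL1: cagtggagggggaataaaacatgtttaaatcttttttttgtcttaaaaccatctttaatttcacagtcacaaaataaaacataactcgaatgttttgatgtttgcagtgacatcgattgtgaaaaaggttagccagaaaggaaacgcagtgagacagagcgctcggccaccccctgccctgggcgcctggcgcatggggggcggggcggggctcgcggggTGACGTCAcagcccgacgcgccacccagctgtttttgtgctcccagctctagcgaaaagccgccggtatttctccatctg
The other 9 of 11 windows of the core genes, ATG5 having a pair, hold none of the 4 motifs. Of the 14538 RefSeq windows of this length that belong to tested genes, 9.15% hold CACGTG, 1.63% hold TCACGTGA, 2.56% hold GTAAACA and 2.87% hold TGACGTCA. Of all 35116 windows the shares are 7.26%, 0.98%, 3.42% and 1.85% in the same order. TDP-43 binds GU-rich RNA. A run of GT repeats at least 12 bases long was in the longest coding transcript of 0 of the 10 core genes and of 4.99% of 11812 tested genes, with introns not searched.

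The order of levels changed between the arms. In the knockdown the order was MAP1LC3B, BECN1, ATG13, ULK1, ULK2, ATG14, ATG5, ATG9A, ATG7 and GABARAPL1. In the control it was MAP1LC3B, BECN1, ATG5, ATG13, ATG9A, ULK2, ULK1, GABARAPL1, ATG7 and ATG14. ATG14 was thus rank 6 in the knockdown and rank 10 in the control, and ATG5 rank 7 and rank 3. Neighbours whose libraries overlapped in the knockdown were ATG13, ULK1 and ULK2 in turn, and ATG14, ATG5 and ATG9A in turn. In the control the neighbours from ATG13 down to ATG7 overlapped in turn, while ATG5 and ATG14 stood apart from theirs. Between libraries the core genes varied by a coefficient of variation of 2.21% (BECN1) to 12.3% (GABARAPL1) in the knockdown, and of 0.265% (BECN1) to 14.2% (GABARAPL1) in the control.

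**Figure D3:**
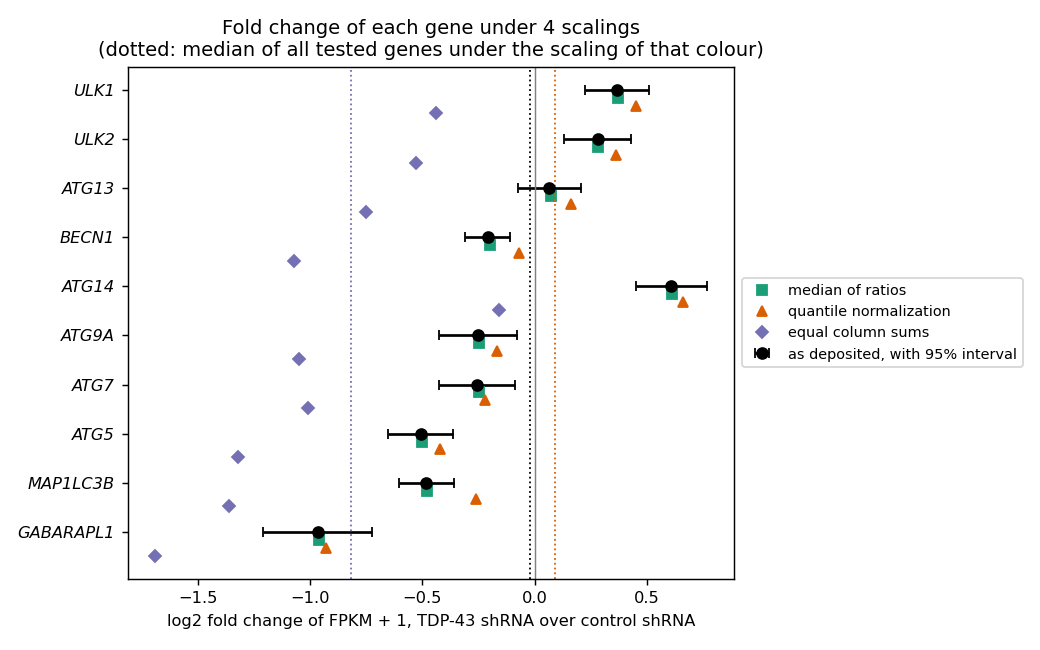
Log2 fold change of FPKM + 1 (horizontal axis, TDP-43 shRNA over control shRNA) of each core gene as deposited, with its 95% interval, and under 3 rescalings, with the median of all tested genes under a scaling dotted. ULK1, ULK2 and ATG14 lie above 0 under 3 scalings and below 0 under equal column sums, which shift the median of all genes along with them, to -0.82.

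Of 22 tested genes of mTORC1, its inputs and AMP-activated kinase, 7 rose and 7 fell on the deposited scale, with a median log2 fold change of 0.11. Each count is 31.8%, near the shares over all tested genes, 30.5% higher and 35.9% lower. DDIT4, an mTORC1 inhibitor gene, stood at 24.9, 27.7 and 27.0 FPKM in knockdown libraries and 12.2, 11.4 and 13.1 FPKM in control libraries (log2 fold change 1.06, limma adjusted p = 1.29e-06). TSC2, whose product also restrains mTORC1, stood at 25.6, 27.6 and 26.7 FPKM in knockdown libraries and 15.6, 15.2 and 15.5 FPKM in control libraries (log2 fold change 0.75, limma adjusted p = 1.71e-06), turning to -0.11 under equal column sums. PRKAG2, a regulatory subunit gene of AMP-activated kinase, fell to 8.35, 7.40 and 6.52 FPKM in knockdown libraries, against 16.7, 16.6 and 18.1 FPKM in control libraries (log2 fold change -1.11, limma adjusted p = 5.05e-06). The kinase gene MTOR, whose product phosphorylates and restrains ULK1, stood at 15.6 ± 0.390 FPKM in knockdown libraries and 12.7 ± 0.227 FPKM in control libraries (SD, n = 3 each). Its log2 fold change was 0.27 (limma adjusted p = 0.00109), and -0.57 under equal column sums. RPTOR, the mTORC1 adaptor gene, did not pass, with 12.4 ± 0.226 FPKM in knockdown libraries and 11.7 ± 0.314 FPKM in control libraries (log2 difference 0.07, 95% interval -0.04 to 0.19, limma adjusted p = 0.227). Every knockdown value of RPTOR was still above every control value, as in 32.5% of all tested genes. With quantile normalization RPTOR was 0.18 and passed (adjusted p = 0.0137).

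Transcription factors that act on autophagy and lysosome genes on the list counted 8, of which 5 fell (62.5%) and 2 rose (25%). Among all tested genes 35.9% were lower and 30.5% higher. With quantile normalization 4 fell and 4 rose, beside 28.1% and 40.1% of all tested genes. With a minimum mean of 5 FPKM, TFEB, MITF and FOXO1 were too low to be tested, which left 2 falls and 2 rises. Of all genes tested with that filter, 40.4% were lower and 28.6% higher. TFE3, of the MiT family that binds the E-box, stood at 5.91, 6.46 and 6.23 FPKM in knockdown libraries and 14.5, 15.6 and 16.2 FPKM in control libraries (log2 fold change -1.19, limma adjusted p = 4.85e-07). Its relative MITF stood at 1.92, 1.34 and 1.82 FPKM in knockdown libraries and 3.35, 3.34 and 3.04 FPKM in control libraries (log2 fold change -0.66, limma adjusted p = 0.000462). TFEB, the best-known regulator of the family, was low throughout, with 0.707, 0.804 and 0.544 FPKM in knockdown libraries and 1.41, 1.09 and 2.32 FPKM in control libraries. TFEB had a log2 fold change of -0.60 (limma adjusted p = 0.0111), or -1.07 with a pseudocount of 0.1, and did not pass with no filter on low values (adjusted p = 0.0794). The 2 rises on the deposited scale, singled out once the values were known, were FOXO3 and ZKSCAN3. FOXO3, an activator of autophagy genes, had a log2 fold change of 0.33 (limma adjusted p = 0.000700). ZKSCAN3, reported to repress such genes, had 0.43 (limma adjusted p = 0.00206). Both were negative under equal column sums (-0.54 and -0.34).

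Over all 7 lists of autophagy genes by role, the 58 tested genes besides the core 10 gave 9 rises (15.5%) and 24 falls (41.4%), with a median log2 fold change of -0.03. Among all tested genes the shares were 30.5% and 35.9%. With quantile normalization the 58 genes gave 23 rises (39.7%) and 20 falls (34.5%), beside 40.1% and 28.1% of all tested genes. The 9 rises lay in the list of mTORC1 and AMP-activated kinase and in that of transcription factors. Outside these lists lay the lists of the autophagy machinery itself. There the genes besides the core 10 called on the deposited scale with the settings used throughout were lower. The falls were 1 of 2 tested in the ULK complex (50%), 1 of 6 in the PI3-kinase complexes (16.7%) and 3 of 8 in membrane supply (37.5%). In conjugation they were 5 of 9 (55.6%) and in the ATG8 family 2 of 3 (66.7%), beside 35.9% of all tested genes. That 0 of these machinery genes rose, beside 30.5% of all tested genes, depended on the setting. In 9 of 18 alternatives at least 1 was called higher, WIPI2 in 4 of them. With quantile normalization 8 were, where 40.1% of all tested genes were higher.

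**Figure D4:**
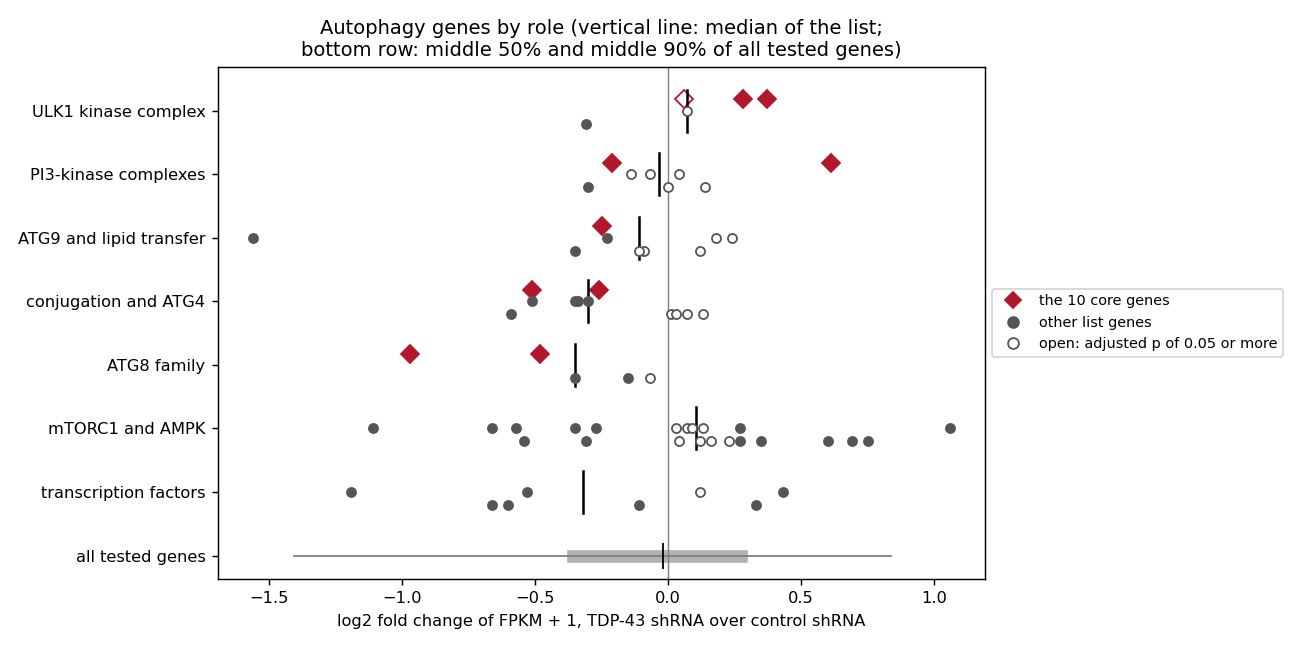
Log2 fold change of FPKM + 1 (horizontal axis, TDP-43 shRNA over control shRNA) of the tested autophagy genes by role, with the 10 core genes as red diamonds, other genes as grey circles, open symbols for an adjusted p of 0.05 or more, and vertical lines at list medians. The bottom row shows the middle 50% and 90% of all tested genes. The conjugation and ATG8 lists have medians of -0.30 and -0.35 with the core genes included, and of -0.30 and -0.15 without them. ULK1, ULK2 and ATG14 lie right of 0 on the deposited scale but not under equal column sums.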

How the data were processed

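The labels' protocols state that poly(A) RNA was made into libraries with a strand-preserving (directional) kit. The authors deposited FPKM per gene and library. The submitters' processing notes list hg38 as the build, and Cuffdiff 2.2.1, TopHat2 2.1.0 and SAMtools as tools. Neither the gene annotation nor the strand setting is stated. Exons of other genes overlap 6 of the 10 core genes, up to 18.1% of exon bases on the opposite strand (VGLL4 at ATG7), and such reads may be shared. No 2 libraries were copies.

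Tests ran on log2(FPKM + 1), a scale that understates changes of low genes. Genes with a mean of at least 1 FPKM were tested by limma 3.58.1 in R 4.3.3 (intensity trend, two-sided), with Benjamini-Hochberg adjustment over 13434 genes and calls at 0.05. The fit was also run on simulated data with far fewer changed genes than were called here, so that run gives no support to the calls. Within-library ratios used exact permutation tests in Python 3.11.15. The core genes and lists were chosen with earlier results of these data known. Genes were named by a rule: the core genes, up to 3 called genes with the largest change per list, and fixed partners. FOXO3, ZKSCAN3, FOXO1, ATG9B, single cell-state markers, genes called higher only in alternatives and members of counts of 5 or fewer were named once values were known. Positions are 1-based from GENCODE v29, and promoters from RefSeq. Alternatives were other pseudocounts, filters, scalings, limma settings, a replicate block and leaving out each library.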

Additional observations from a re-analysis of the deposited data

How the results depend on the processing

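Of the 10 core genes, 2 (ATG5 and MAP1LC3B) kept their direction and call in all 18 alternatives, and ULK1, ULK2, ATG13 and ATG14 did so outside the equal column sums. GABARAPL1 kept both in 17, and with a minimum mean of 5 FPKM neither it nor ATG7 was tested, leaving 4 core genes lower. Equal column sums, which follow a few small RNAs, gave 522 genes higher and 11689 lower over all genes, 0 core genes higher, and 1 other list gene higher and 55 lower. Log2 values turned negative there for ULK1 (-0.44), ULK2 (-0.53), ATG13 (-0.75), ATG14 (-0.16), TSC2 (-0.11), UVRAG (-0.73), MTOR (-0.57), RPTOR (-0.76), ATG4B (-0.81), FOXO3 (-0.54) and ZKSCAN3 (-0.34). Quantile normalization, which moved the median of all genes to 0.09, gave 23 other list genes higher and 20 lower (5390 and 3769 over all genes), and turned GABARAPL2 to 0.12 and GABARAP to 0.17. Equal sums without the 6 small RNAs, chosen after seeing the data, turned ATG4B to -0.02 and kept the 3 core rises. Leaving out 1 library at a time gave 3 core genes higher each time and 5 to 6 lower, with UVRAG from -0.02 to 0.14 and ATG4B from -0.06 to 0.10. Same-numbered libraries did not deviate together (correlations -0.0185, -0.185 and -0.0911), and the replicate block gave 3894 genes higher and 4667 lower, with 3 and 6 core genes. With no filter on low values WIPI1 (adjusted p = 0.14) and GABARAPL2 (0.127) lost their call, as GABARAPL2 did without the trend (0.0787). WIPI1 missed with columns rescaled by median of ratios (0.0501) and with a minimum mean of 0.1 FPKM (0.0505). Depth is known only in relative terms, so low genes such as TFEB and GABARAPL1 carry a counting error that cannot be stated.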
